A study of Bos taurus with 8 samples.

Results

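The bovine miRNAs miR-132 and miR-212 were followed in mammary gland tissue of 4 Holstein-Friesian heifers, a dairy breed, and 4 Limousin heifers, a beef breed, none of them pregnant. They were found by name, as the entries bta-miR-132 and bta-miR-212, and are 2 of the 763 miRNAs on the array. Total RNA was taken from the gland of each animal after slaughter, and each sample had its own one-colour Agilent array. The labels call all animals healthy, give an age of 20 months in 1 field but 2 years in the protocol, and name no treatment. Every difference below is Limousin minus Holstein-Friesian, the breed that the design text takes as reference.

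A miRNA is a short RNA cut from a hairpin precursor, and it lowers the output of messenger RNAs that pair with its seed, the bases near its 5′ end. The genes of miR-132 and miR-212 lie side by side and are transcribed together, in neurons under the control of the transcription factor CREB. In mice a deletion of the locus was reported to stop mammary ducts from growing out, with the requirement placed in the stroma around the ducts. The 3p arms of both miRNAs share their seed. In human and mouse each hairpin also has a 5p arm, which has another sequence and another seed.

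The array reads each miRNA with a pair of nested probes that pair with its 3′ end. The probe sequences are shown because they decide which arm of each hairpin was measured. They are written 5′ to 3′, with a capital for the base by which the longer probe exceeds the shorter one.
miR-132, shorter probe: cgaccatggctgtag
miR-132, longer probe: cgaccatggctgtagA
miR-212, shorter probe: agtaagcagtctagagc
miR-212, longer probe: agtaagcagtctagagcC
The RNA that pairs with the longer probes, in DNA letters, is their reverse complement.
miR-132, measured stretch: tctacagccatggtcg
miR-212, measured stretch: ggctctagactgcttact
In human and mouse the first of these stretches lies in the 3p arm of miR-132, and the second lies in the 5p arm of miR-212. By that arrangement the miR-212 entry of this array did not read the arm that shares its seed with miR-132. The longer miR-132 probe and the longer miR-212 probe share no run of bases longer than 4. Against the 1653 probes of other miRNAs, the longest shared run was 7 bases for miR-132 and 8 bases for miR-212.

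The array annotation, which uses the UMD 3.1 build, places the longer miR-132 probe at chr19:23651205-23651219 and the longer miR-212 probe at chr19:23651607-23651623. The listed positions span 1 base less than the probe, and the strand is not given in the sources used here. The probes of both miRNAs lie 388 bases apart, and RefSeq lists MIR132 (gene 791027) and MIR212 (gene 100313018) as miRNA genes on chromosome 19. The miR-132 probes are 15 and 16 bases long with a GC content of 60% and 56.2%, and the miR-212 probes are 17 and 18 bases long with 47.1% and 50%.

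An array held 45780 spots of 1657 miRNA probes, and no spot was saturated. The share of these spots well above background was 28.58% to 31.72% in Holstein-Friesian and 31.77% to 35.51% in Limousin, without overlap. The number of miRNAs detected was 243 to 267 in Holstein-Friesian and 271 to 297 in Limousin. The 75th percentile of the probes detected on all 8 arrays ran from 557 to 939 intensity units in Holstein-Friesian and from 943 to 1579 in Limousin, so that every Limousin array was brighter. All arrays were on 1 slide, with each breed in its own position index, so that the place on the slide cannot be told apart from the breed. With 4 arrays a breed, taken by the labels as biological replicates, the precision of every value is limited by their number.

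The miR-212 entry was not detected on any of the 8 arrays. For the shorter probe, the mean background-corrected spot signal was -1.21, -1.64, -1.72 and -3.16 intensity units in Holstein-Friesian replicates 1 to 4 and -1.63, -2.09, -1.51 and -1.50 in Limousin replicates 1 to 4. For the longer probe it was -1.81, -0.016, -1.18 and -0.96 in Holstein-Friesian and -1.01, -0.32, -0.89 and -0.59 in Limousin. These signals are near or below those of the negative control spots of the same arrays, which had means between -1.43 and -0.23. The shorter probe lay below the control mean of its own array on every array, and the longer probe lay on either side of it. The groups overlapped for each probe. Of the 466 miR-212 spots used over all arrays, 18 (3.86%) exceeded the 95th percentile of the negative controls of their array. None of the 466 spots was well above background, the scanner software's flag for a spot clearly brighter than its surroundings.

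A less strict flag of the software marks spots whose signal is positive and significant against background. It marked 25 of the 466 miR-212 spots. By array the share was 3.39%, 13.3%, 5.36% and 5.36% in Holstein-Friesian and 3.45%, 3.33%, 3.45% and 5.08% in Limousin. Negative control spots carried this flag at 5.11% to 11.2%, so miR-212 spots were marked about as often as spots that should bind nothing, with Holstein-Friesian replicate 2 alone above its controls, at 13.3% against 7.63%. After scaling, both miR-212 probes lay under 1 intensity unit on each of the 8 arrays, and no breed difference can be given. By the well-above-background flag, the faintest probe called detected had a signal of 16.6 to 19.7 units, and a miR-212 level below that could have missed this call. The less strict flag reached lower. In Holstein-Friesian replicate 2 the longer miR-132 probe had a mean of 6.55 units, and 92.9% of its spots carried the less strict flag. How low a miR-212 level this flag would have shown was not tested. In this tissue 463 of the 763 miRNAs (60.7%) were detected on no array.

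**Figure D1:**
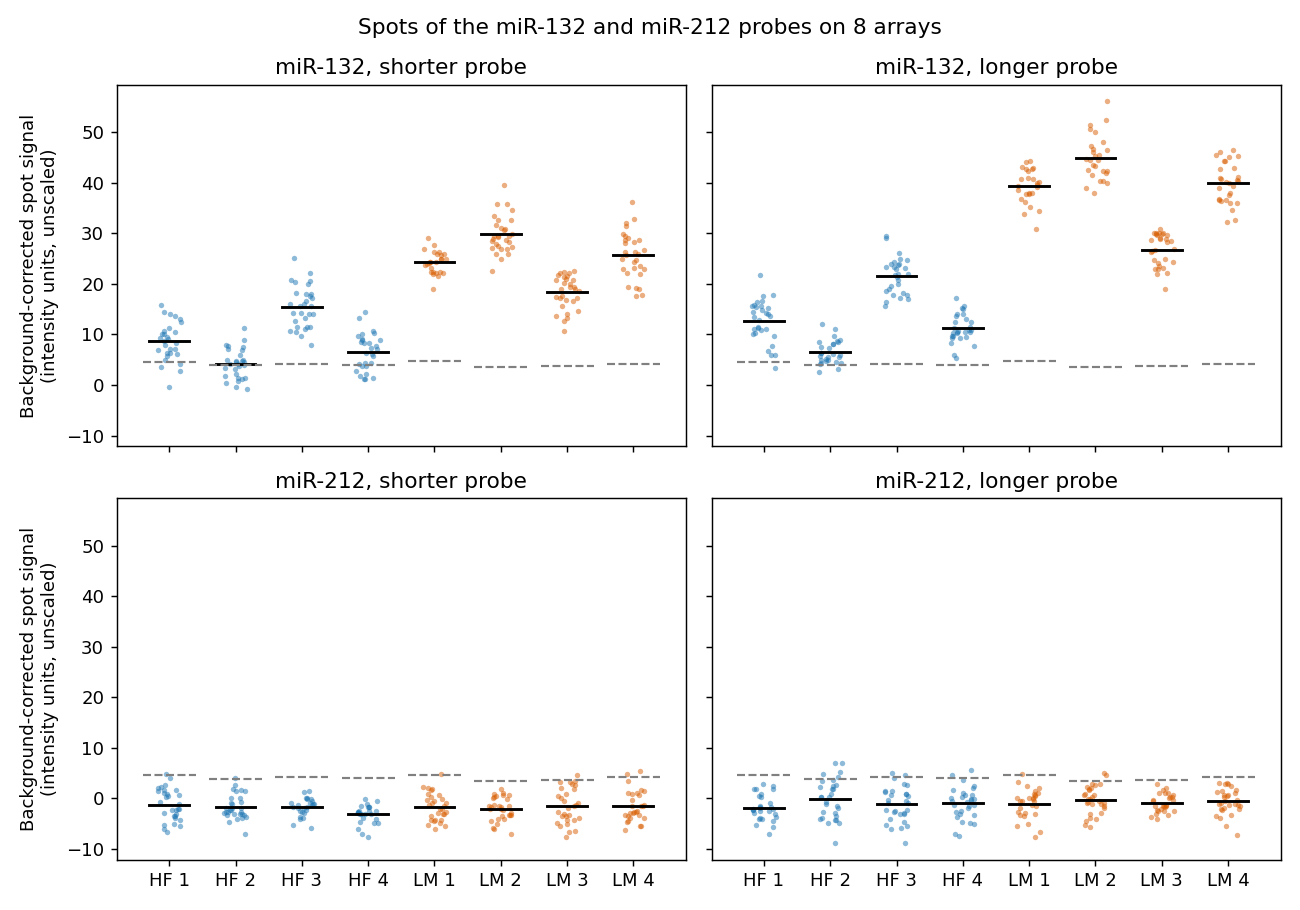
Background-corrected signal of each spot (y axis, unscaled intensity units) for the 4 probes on 8 arrays (x axis; HF Holstein-Friesian, LM Limousin), with black bars for the mean of the spots and dashed lines for the 95th percentile of the negative control spots. The miR-212 means lie between -3.16 and -0.016 on every array, while the longer miR-132 probe runs from 6.55 to 21.6 in Holstein-Friesian and from 26.7 to 45.0 in Limousin.

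The miR-132 entry gave signal on every array and was brighter in all 4 Limousin heifers. The longer probe had a mean spot signal of 12.7, 6.55, 21.6 and 11.2 intensity units in Holstein-Friesian replicates 1 to 4, and of 39.3, 45.0, 26.7 and 39.9 in Limousin replicates 1 to 4. The groups did not overlap, and Holstein-Friesian replicate 3 lay nearest to the Limousin range. The shorter probe gave 8.63, 4.20, 15.5 and 6.59 in Holstein-Friesian and 24.3, 29.8, 18.3 and 25.6 in Limousin, with the same lowest and highest animals in each breed. Spots of 1 probe on 1 array spread with an SD of 2.20 to 4.65 units, and they are repeats within an animal, not replicates. Such a separation upward in Limousin was common before scaling: it held for 106 of 269 tested miRNAs (39.4%).

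Detection of miR-132, read before scaling, also separated the breeds. The share of all miRNA spots well above background did so too, at 28.58% to 31.72% in Holstein-Friesian and 31.77% to 35.51% in Limousin. The part of array brightness in the miR-132 shares was not tested. The share of its spots that were well above background was 1.69%, 0%, 44.1% and 0% in Holstein-Friesian replicates 1 to 4 and 100%, 100%, 85.0% and 100% in Limousin replicates 1 to 4. The mean share was 11.4% ± 21.8 (SD, n = 4) in Holstein-Friesian and 96.2% ± 7.5 (SD, n = 4) in Limousin (two-sided exact permutation test, p = 0.0286, the smallest that 4 against 4 allows). A share of spots that did not overlap and was higher in Limousin was found for 41 of the 763 miRNAs on the array (5.37%). These 763 include the 463 detected on no array, and the share among miRNAs near the detection limit was not counted. The positive-and-significant flag, by contrast, was set on 94.9%, 78.9%, 100% and 89.7% of miR-132 spots in Holstein-Friesian and on 100% of them on every Limousin array (exact permutation test, p = 0.143). On each Holstein-Friesian array this was far above the 6.80% to 10.4% of its negative controls, so that miR-132 gave signal over the controls in both breeds, at a level near the detection limit in Holstein-Friesian.

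**Figure D2:**
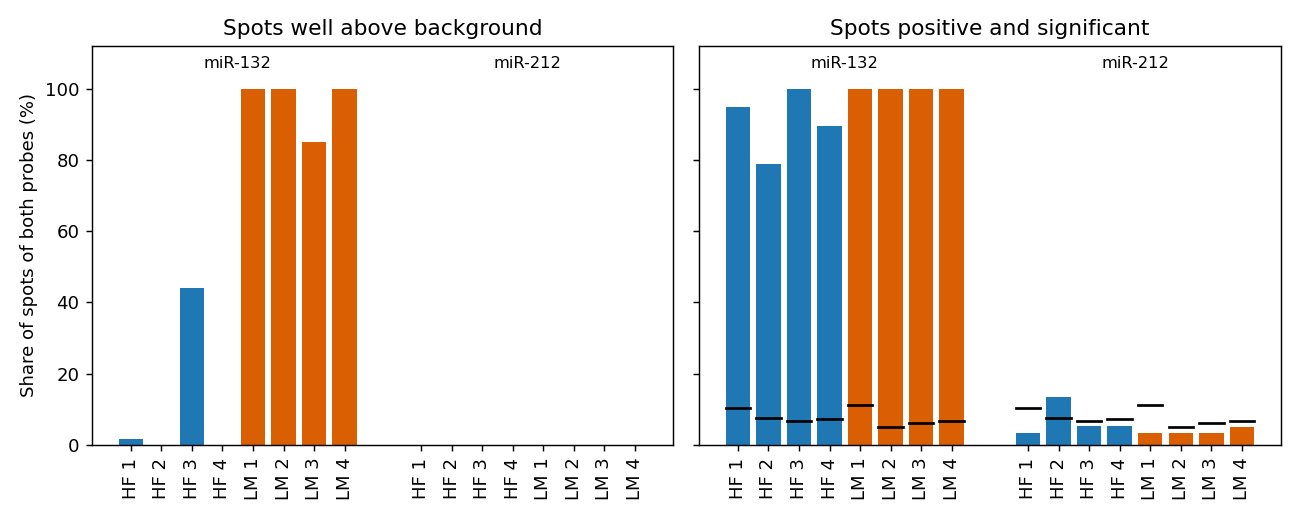
Share of the spots of both probes (y axis, %) that were well above background (left) or positive and significant (right), by array (x axis; HF Holstein-Friesian, LM Limousin), with black lines for the negative control spots on the right. For miR-132 the left share is 0% to 44.1% in Holstein-Friesian and 85.0% to 100% in Limousin, and for miR-212 it is 0% on every array.

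A probe was called detected when the well-above-background flag was set on more than 50% of its spots. By that rule miR-132 was detected on 4 of 4 Limousin arrays and on 1 of 4 Holstein-Friesian arrays. Detection on all 4 Limousin arrays and on at most 1 Holstein-Friesian array was found for 15 of the 763 miRNAs, and the reverse for 1. Of the 763, 463 were detected on no array and 232 on all 8, and neither group could show such a pattern. Signals were then divided by the 75th percentile of their array and brought to a common level before log2. The scaled log2 signal of the longer probe was 4.27, 3.50, 4.47 and 4.12 in Holstein-Friesian and 5.0, 4.78, 4.77 and 4.95 in Limousin. The groups again did not overlap, as for 43 of the 269 tested miRNAs in this direction (16%). The mean was 4.09 ± 0.42 (SD, n = 4) in Holstein-Friesian and 4.87 ± 0.12 (SD, n = 4) in Limousin, a log2 difference of 0.78 (SE 0.19) and a fold of 1.72 (95% confidence interval 1.28 to 2.32; limma adjusted p = 0.0106). The miRNA entered this fit only through the Limousin arrays, and with all 763 miRNAs fitted the same difference did not pass (limma adjusted p = 0.0601). In the fit of the tested miRNAs 113 of 269 miRNAs passed (42%), 37 of them higher (13.8%) and 76 lower (28.3%) in Limousin, against a median difference of -0.065 over all tested miRNAs.

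Because miR-132 met the detection rule on only 1 Holstein-Friesian array, this fold leans on signals below the detection limit. With each array's lowest detected signal as the floor, the Holstein-Friesian mean became 4.75 against 4.87 in Limousin. This 1.09-fold difference (log2 0.13, SE 0.13) no longer passed (limma adjusted p = 0.450). It sets no lower bound on the fold. The shorter probe, which was detected on 0 of 4 Holstein-Friesian arrays, had scaled log2 signals of 3.72, 2.86, 3.99 and 3.35 there and of 4.31, 4.18, 4.22 and 4.31 in Limousin. These groups did not overlap either, but with no Holstein-Friesian array above the limit they give no measured size of difference. The shorter probe also lies wholly within the longer one, so it is no separate measurement of miR-132.

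Holstein-Friesian replicate 2 had the lowest miR-132 signal by either probe. Without this animal the difference was 0.59 (limma adjusted p = 0.0029), and the direction and the call held without each of the other arrays.

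The unscaled miR-132 signal followed the brightness of the arrays. Ordered by the 75th percentile, from 557 units in Holstein-Friesian replicate 2 to 1579 in Limousin replicate 2, the arrays stood in the same order as by the longer miR-132 probe (Spearman's rho of 1 over 8 arrays, which also share the breed split). Such an identical order was found for 16 of the 269 tested miRNAs (5.95%), whose median rho was 0.90. The brightest Holstein-Friesian array, replicate 3, and the dimmest Limousin array, replicate 3, had nearly equal percentiles of 939 and 943, and their miR-132 signals were 21.6 and 26.7 units. Without scaling the log2 difference was 1.64 (SE 0.30; limma adjusted p = 4.8e-06), in a fit where 63.9% of miRNAs passed as higher in Limousin and the median difference was 0.79. The part of array brightness in the miR-132 difference was not tested.

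**Figure D3:**
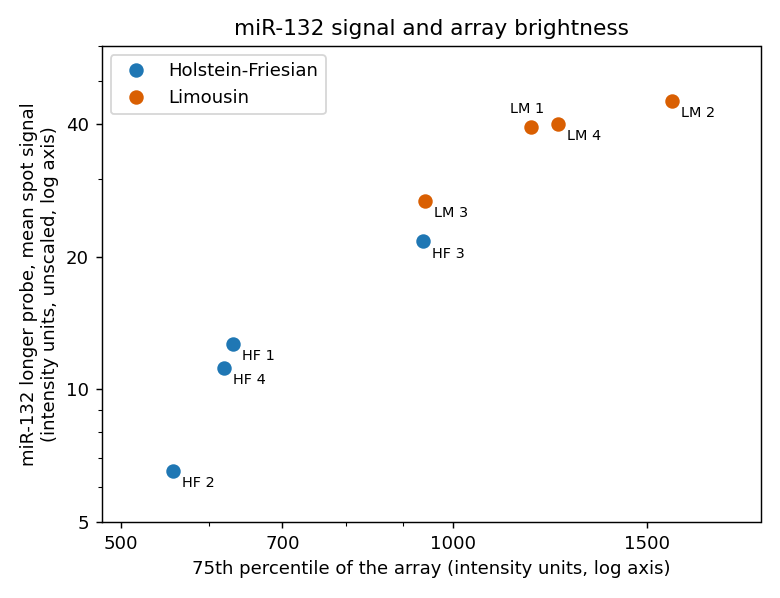
Mean spot signal of the longer miR-132 probe (y axis, unscaled intensity units, log axis) against the 75th percentile of the same array (x axis, intensity units, log axis), 1 point per animal, HF for Holstein-Friesian and LM for Limousin. Both values rise in the same order over all 8 arrays, and Holstein-Friesian replicate 3 and Limousin replicate 3 stand side by side at 939 and 943 on the x axis.

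The direction of the miR-132 difference depended on how background was removed before scaling. The spot means of the longer probe, before background correction and scaling, were 5.98, 5.79, 6.17 and 5.89 on the log2 scale in Holstein-Friesian and 6.49, 6.57, 6.23 and 6.46 in Limousin. Limousin was higher without overlap, as for 36.1% of tested miRNAs, with a difference of 0.48 (limma adjusted p = 0.0151, in a fit where 58% passed as higher). When the same uncorrected means were scaled by array brightness, they became 6.55, 6.53, 6.20 and 6.49 in Holstein-Friesian and 6.21, 5.88, 6.26 and 6.11 in Limousin. The difference was then -0.33 and passed in the opposite direction (limma adjusted p = 0.0377), where 52.8% of tested miRNAs passed as lower in Limousin and the median was -0.36. The normexp correction with an offset of 50 gave -0.38 (limma adjusted p = 0.0246), in a fit where 53.9% passed as lower. The undetected miR-212 moved by -0.80 and -0.78 under the same settings, though its uncorrected, unscaled signal differed by only 0.011 between breeds.

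**Figure D4:**
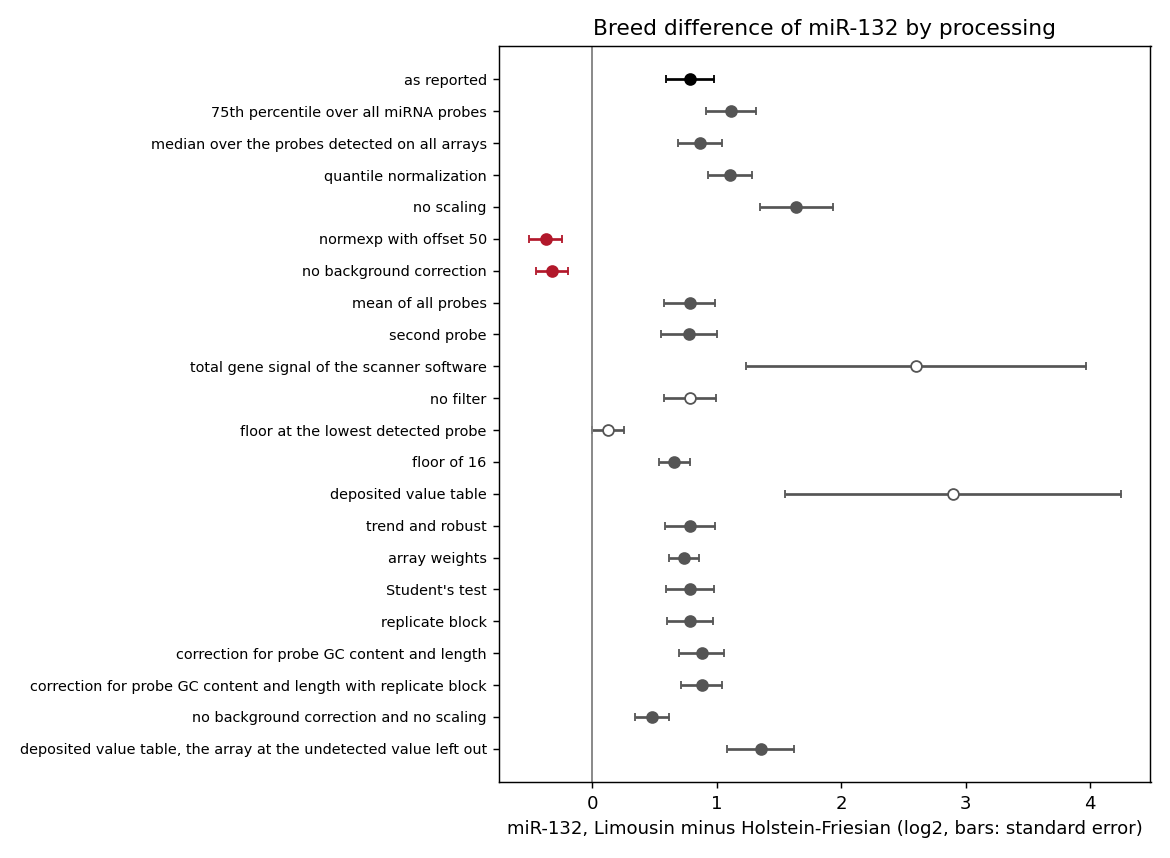
Breed difference of miR-132 (x axis, log2, Limousin minus Holstein-Friesian, bars are standard errors) under each processing setting (y axis), with filled points where the adjusted p was under 0.05 and red points where the direction turned. The reported setting gave 0.78, and the normexp and uncorrected settings gave -0.38 and -0.33.

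The authors' deposited value table gives log2 values scaled per array, with a low fill-in value for a miRNA that the software called undetected. For miR-132 it holds -2.67, -8.53, -1.60 and -2.75 in Holstein-Friesian and -0.89, -1.07, -1.06 and -0.95 in Limousin. The groups did not overlap, but how many other miRNAs did so in these values was not counted. The value of Holstein-Friesian replicate 2 is the one for undetected signals. By this rule of the software miR-132 was detected on 3 of 4 Holstein-Friesian arrays and not on 1 of 4. The difference was 2.90 and did not pass (limma adjusted p = 0.108). Without Holstein-Friesian replicate 2, a setting chosen after the data were seen, it was 1.35 and passed (limma adjusted p = 0.0046). In that fit 175 of 269 miRNAs passed, 124 of them higher in Limousin. For miR-212 the table holds the undetected value on all 8 arrays.

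Other miRNAs tied to mammary ducts, stroma, stem cells or epithelium in mouse or human were counted from a list of 28 names, which matched 34 array entries. Of these 29 were tested, and 10 rose in Limousin, miR-132 among them, 1 fell and 18 did not pass, beside 13.8% higher and 28.3% lower among all tested miRNAs. Their median difference was 0.16, against -0.065 over all tested miRNAs. The risen members with the smallest p, miR-146b, tied to mammary stem and progenitor cells, and miR-101, a repressor of the chromatin enzyme EZH2, rose by log2 differences of 0.94 and 0.76 (limma adjusted p = 0.0012 and 0.0036). The cell cycle regulator miR-222 rose by 0.50 (limma adjusted p = 0.0066). A fall was called for miR-489, with a difference of -0.79 (limma adjusted p = 0.0141). Of the 34 entries, 5 were detected on no array: miR-212, miR-193b, miR-206 and both arms of miR-503.

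Markers of the cell types that the tissue could hold were read beside miR-132, and their part in its difference was not tested. In bulk tissue fewer cells of a type and less RNA per cell cannot be told apart. The shares of all tested miRNAs that passed, 13.8% higher and 28.3% lower, stand beside each count that follows. Of the 8 stromal fibroblast entries 5 rose, and these are 2 entries of miR-218 and 3 of the miR-199 family. The entry miR-218 was detected on 0 of 4 Holstein-Friesian arrays. It entered the fit only through the Limousin arrays, and its counted rise has no measured size. The older entry miR-218_v13.0, detected on all arrays, rose by a log2 difference of 0.88 (limma adjusted p = 0.0012). The miR-199 entries, miR-199b, miR-199a-3p and miR-199a-5p, rose by 0.59, 0.47 and 0.36. The other entries, miR-152, miR-10b and miR-214, had differences of 0.26, -0.097 and 0.0048 and did not pass (limma adjusted p = 0.111, 0.603 and 0.981). The summed scaled signal of the 8 entries was 5982 to 6782 in Holstein-Friesian and 7463 to 9329 in Limousin, without overlap. This sum rests mostly on the brightest entries, miR-199a-3p and miR-199a-5p, with Holstein-Friesian means of 11.3 and 10.7 on the scaled log2 scale. Both were already counted as risen, so the sum adds little to that count. Among single tested miRNAs, 43 of 269 (16%) separated in this direction, and no such share was computed for sums. Of the 9 epithelial entries 8 were detected on all arrays and none of the 8 passed, with summed signals of 18059 to 20303 and 19162 to 21048. Among these, miR-96, miR-200c and miR-205 had differences of 0.32, -0.17 and 0.22 (limma adjusted p = 0.111, 0.225 and 0.247).

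Markers of neurons, the cells where miR-132 is best known, were mostly undetected. Of 11 neuronal entries 10 were detected on no array, among them the defining miR-124a and miR-9-5p, and the remaining one, miR-128, had a difference of -0.026 (limma adjusted p = 0.873). The summed neuronal signal overlapped, at 80.9 to 90.6 in Holstein-Friesian and 73.7 to 88.8 in Limousin. Of 7 leukocyte entries 2 rose, miR-155 by 0.95 and miR-142-5p by 0.56, and miR-342, miR-223 and miR-150 did not pass, at -0.13, -0.15 and 0.022. The summed leukocyte signal was 1507 to 2021 and 1931 to 2305, and miR-142-3p and miR-146a were detected on no array. Of 7 adipocyte entries 4 were tested and 2 fell, miR-193a-5p with a difference of -0.67 and miR-365-3p with -0.40, while miR-193a-3p at -0.21 and miR-335 at 0.59 did not pass (limma adjusted p = 0.167 and 0.274). The summed adipocyte signal was 1832 to 2122 in Holstein-Friesian and 1517 to 1666 in Limousin, lower in Limousin without overlap. How often such a downward separation occurred was not counted, for single miRNAs or for sums, so this one cannot be called unusual.

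Endothelial, contractile, blood and muscle markers were read in the same way. Of 3 endothelial entries miR-139 fell, with a difference of -0.42 (limma adjusted p = 0.0154), while the 5p and 3p arms of miR-126 had differences of 0.41 and 0.20 and did not pass (limma adjusted p = 0.0779 and 0.230). The contractile markers miR-143 and miR-145, both tested, had differences of -0.064 and -0.23 and did not pass (limma adjusted p = 0.637 and 0.0912). Their summed signals were 4541 to 4955 in Holstein-Friesian and 3734 to 4208 in Limousin, lower in Limousin without overlap. This sum is almost wholly miR-145, whose Holstein-Friesian mean was 12.2 on the scaled log2 scale, against 7.41 for miR-143. The share of miRNAs or sums that separated downward was not counted. The erythroid marker miR-451 did not pass, and miR-144 and miR-486 were detected on no array. Of 5 muscle entries 1 was tested, miR-1, detected on 2 of 4 Holstein-Friesian and 4 of 4 Limousin arrays, and it did not pass. The muscle entries miR-206 and miR-499 were detected on no array, and the remaining ones on some arrays but too few to be tested.

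The nearest miRNAs on chromosome 19 were looked at as neighbours of the locus. Within 1000000 bases the array has 5 other entries, and 3 of them, miR-2337, miR-3600 and miR-2336, were detected on no array. The others are the arms of miR-22, a widely expressed miRNA, some 268698 bases from miR-132. The 3p arm had a scaled log2 signal of 7.19 ± 0.16 (SD, n = 4) in Holstein-Friesian and 7.32 ± 0.13 (SD, n = 4) in Limousin (limma adjusted p = 0.444). The 5p arm lay at 5.42 ± 0.13 and 5.49 ± 0.10 (SD, n = 4 each; limma adjusted p = 0.664). The intervals of differences this small (0.13, SE 0.12, and 0.066, SE 0.11) do not show that the arms were equal.

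The miRNAs whose scaled log2 signal was most like that of miR-132 over the 8 arrays were chosen by Pearson's r. They were miR-29a, with an r of 0.99, miR-26a, with 0.96, miR-29c, with 0.94, miR-23b-3p, with 0.93, and miR-155, with 0.92. These values are a description over arrays that share the breed split, the slide and the scaling. With the mean of each breed removed, r was 0.97 for miR-29a, 0.89 for miR-26a, 0.81 for miR-29c, 0.88 for miR-23b-3p and 0.79 for miR-155. Of these, miR-29a, known for repressing collagen genes, rose by 0.60 (limma adjusted p = 0.0193), its relative miR-29c by 0.67 (0.0115) and miR-155, an immune cell miRNA, by 0.95 (0.0012). For miR-26a and miR-23b-3p the differences of 0.31 and 0.20 did not pass (limma adjusted p = 0.0541 and 0.192). All 5 were detected on 8 of 8 arrays, unlike miR-132. For miR-212, at the floor on every array, no likeness could be computed.

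**Figure D5:**
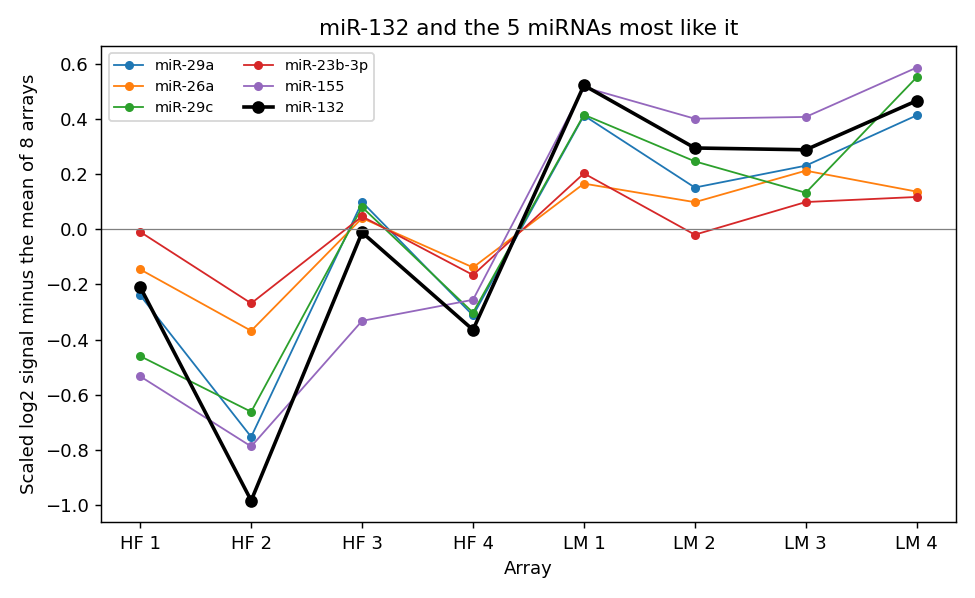
Scaled log2 signal minus its mean over 8 arrays (y axis) for miR-132 and the 5 miRNAs with the highest Pearson's r to it, by array (x axis; HF Holstein-Friesian, LM Limousin). For miR-132 the lowest point is Holstein-Friesian replicate 2, at a scaled log2 signal of 3.50, and all Limousin points lie above all Holstein-Friesian points.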

How the data were processed

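Scanner files hold spot intensities that the authors made with Agilent Feature Extraction 10.10.1.1, per the file headers; background and spatial trend were removed, and arrays were not scaled. Per the labels' protocols Cyanine 3 was joined to 100 ng of RNA. The deposited log2 table equals the log2 of the software's total signal per miRNA, with 0.1 for undetected ones, minus a constant per array (within 9.7e-06), as found from the values; its column medians ran from -9.79 to -8.53, its rows were not centred, and its direction is that of single samples. Detection was read from the software's deposited flags.

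Control and outlier spots were left out and spots of a probe averaged. Signals were divided by their array's 75th percentile, taken over 429 probes that every array detected, multiplied by its mean (961 units), set to at least 1 and logged. Each miRNA took its probe with the highest mean. A miRNA was tested if every array of 1 or both breeds detected it, which left 269, fitted with limma 3.58.1 in R 4.3.3 (Benjamini-Hochberg, 0.05). miR-212 did not enter this fit. Neither an adjusted p over the members nor seeds were computed, since no mature sequences were used here. The fit was tested on simulated data. Members and lists were chosen with earlier results of these data known. Named were the members, the 5 miRNAs most like miR-132, neighbours within 1000000 bases and the 3 smallest p per list; miR-489, the miRNAs at undetected levels, and markers named beyond those 3 were named after their values were seen. Summed marker signals add probes of unlike response and serve only to compare arrays.

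Both breeds carry the numbers 1 to 4, but same-numbered animals correlated in their deviations from the breed mean by -0.30, -0.25, -0.45 and 0.31, so the numbers were not taken as pairs.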

Additional observations from a re-analysis of the deposited data

Results flagged for a closer look

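Of 17 groups of 4 values checked, 4 held an animal far from the others. Chance flags about 1 in 20 groups of normally distributed values. That rate does not hold for shares at 0% or 100% or for fill-in values, which are among those flagged. In the share of miR-132 spots well above background, Holstein-Friesian replicate 3 stood at 44.1% against 0% to 1.69% (gap over range 0.96), and Limousin replicate 3 stood at 85.0% against 100% (gap over range 1). These are the brightest array of the first breed and the dimmest of the second. In the deposited value table Holstein-Friesian replicate 2 held -8.53 for miR-132 against -2.75 to -1.60 (gap over range 0.83), its value for undetected signals. The share of miR-212 spots flagged positive and significant was 5.08% in Limousin replicate 4 against 3.33% to 3.45% (gap over range 0.93), all under the 5.11% to 11.2% range of negative controls.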

How the results depend on the processing

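The miR-132 difference of 0.78 kept its direction and call under 13 of 19 settings (0.66 to 1.64) and without each array (0.59 to 0.91). It turned with normexp (-0.38) and without background correction (-0.33), and the call was lost with the total gene signal (2.60), no filter (0.78; adjusted p = 0.0601), the floor at the lowest detected probe (0.13) and the deposited table (2.90); the cause was not tested, though the table holds 1 undetected value. With the replicate number as a block it was 0.78 (adjusted p = 0.0156), the count of calls went from 113 to 84, and 2 of 8 arrays correlated best with their own number. Corrected for probe GC content and length it was 0.88, also with the block. Settings chosen after seeing the data gave 0.48 (neither correction nor scaling) and 1.35 (table without 1 animal). For miR-212 the difference was 0 or, from background and undetected values alone, -0.78 (normexp), -0.80 (uncorrected), -0.87 (total gene signal), -0.94 (lowest detected floor), -0.57 (table) and 0.011 (uncorrected, unscaled). The count of calls moved to 174 unscaled, 171 with normexp, 60 with GC, length and block, and 175 in the table without 1 animal, and ran from 71 (without Limousin replicate 1) to 148 when 1 array was left out; without Holstein-Friesian replicate 4 it was 73. The split of calls, 37 higher and 76 lower, was 172 and 2 unscaled, 104 and 30 with the percentile over all probes, 56 and 45 with quantile and 40 and 59 with median scaling. The breed difference in miR-132 spots, 84.8 percentage points by the well-above-background flag (81.0 to 95.7 without 1 array), was 9.12 by the positive-and-significant flag and 25 by the gene flag; for miR-212 the former gave -3.03. The filter on all 8 arrays could not be applied to either miRNA.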
